A study of Mus musculus with 7 samples.

Results

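The 5 S100 genes S100a4, S100a6, S100a10, S100a11 and S100a13 were chosen by symbol and followed through 7 libraries of sorted mouse thymocytes, out of 17 features of the S100 family and 32286 features in all. S100a4 and S100a6 were found mainly in the DN4 γδ+ library, at 209 and 133 CPM, the usual scale on which counts of unique molecular identifiers (UMIs) are divided by the total of all thymocyte barcodes of the library. S100a10, S100a11 and S100a13 were found in all 7 libraries, and each was also highest in DN4 γδ+ cells, S100a11 at 279 CPM against 260 in Lat-/- DN3 γδ- cells. S100a11 had a second high level in DN3a cells, 5.78-fold above DN3b γδ- cells and 2.20-fold above them among barcodes poor in cell cycle transcripts. Each library was made with 10x 3' v3 chemistry and holds 1 sorted group, so nothing could be tested between groups. The 95% intervals given here cover counting error only and say nothing about spread between animals.

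Thymocytes at the double negative (DN) stages express neither CD4 nor CD8. The 5 WT libraries came from pooled thymi of C57BL/6 mice of both sexes, 6 to 8 weeks old, depleted of CD4+ and CD8+ cells with magnetic beads before sorting. They hold DN3a cells, DN3b γδ- and DN4 γδ- cells, which have passed β-selection on the way to the αβ lineage, and DN3b γδ+ and DN4 γδ+ cells, which carry a γδ T cell receptor. Both DN3b and DN4 γδ- cells were sorted as CD71+ and both γδ+ groups as CD24+ CD44low, and NK1.1+ cells were gated out. Another 2 libraries came from C57BL/6 mice of the genotype Lat-/- TCRd-H2BEGFP, in which the LAT adaptor of the T cell receptor is missing and a green reporter is carried by the TCR δ gene. They hold DN3 γδ- and DN3 γδint cells, the latter with an intermediate level of γδ receptor at the surface. The labels give no age for these mice. Every library was spiked with 500 splenic B cells, and the B cell ratio is given below beside that of the thymocytes. The B cell barcodes were not free of differences between the sorted groups. Those rich in cell cycle transcripts made up 0.820% of B cell barcodes in the DN3a library, 1.60% in Lat-/- DN3 γδ-, 6.29% in DN4 γδ+, 20.9% in Lat-/- DN3 γδint and 47.3%, 71.0% and 72.0% in DN3b γδ-, DN3b γδ+ and DN4 γδ-. The thymocyte gene Ptcra was at 1.64 CPM in the B cells of the DN4 γδ+ library and at 102 in those of the Lat-/- DN3 γδint library, beside 1.10 and 898 in the thymocytes. A difference from the B cell ratio is therefore a description, and the part of thymocyte transcripts in it was not tested.

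S100 proteins are small calcium-binding proteins with paired EF-hand motifs. They mostly act as dimers that bind a partner protein when calcium enters the cell, and S100A10 is the exception that binds its partner without calcium. S100A4 binds non-muscle myosin IIA and is known from motile cells and from memory T cells, S100A6 binds CACYBP, S100A10 forms a tetramer with annexin A2 at the plasma membrane, S100A11 binds annexins and S100A13 takes part in the release of FGF1.

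All 5 genes lie on the plus strand of chromosome 3 in the mouse genome GRCm38 (mm10), in 2 clusters of the S100 locus. The first cluster holds S100a13 (ENSMUSG00000042312, chr3:90514435-90524581), S100a4 (ENSMUSG00000001020, chr3:90603771-90606045) and S100a6 (ENSMUSG00000001025, chr3:90612882-90624181), with 79189 bases between S100a13 and S100a4 and 6836 bases between S100a4 and S100a6. The second holds S100a11 (ENSMUSG00000027907, chr3:93520488-93526287) and S100a10 (ENSMUSG00000041959, chr3:93555080-93564643), 28792 bases apart and 2896306 bases beyond S100a6. S100a4 overlaps the annotated transcript Gm42674 on the same strand, and how reads from the overlap were assigned was not tested. S100a1, on the minus strand, has its start 42 bases from that of S100a13 and runs in the opposite direction.

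The neighbours S100a4 and S100a6 moved together across the libraries and S100a11 did not, so the 250 bases before their RefSeq start sites (GRCm38.p6, plus strand) are shown side by side. Capitals mark matches on either strand to 4 short motifs, TATAAA (the TATA box), CACCC (bound by KLF factors), GGGCGG (the GC box bound by SP factors) and TGANTCA (bound by AP-1).

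S100a4, chr3:90603520-90603769: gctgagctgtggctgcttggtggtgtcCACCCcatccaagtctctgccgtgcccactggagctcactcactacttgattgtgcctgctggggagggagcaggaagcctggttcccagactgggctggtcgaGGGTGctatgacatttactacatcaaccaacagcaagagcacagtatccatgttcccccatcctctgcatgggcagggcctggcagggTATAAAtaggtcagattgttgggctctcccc

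S100a6, chr3:90612644-90612893: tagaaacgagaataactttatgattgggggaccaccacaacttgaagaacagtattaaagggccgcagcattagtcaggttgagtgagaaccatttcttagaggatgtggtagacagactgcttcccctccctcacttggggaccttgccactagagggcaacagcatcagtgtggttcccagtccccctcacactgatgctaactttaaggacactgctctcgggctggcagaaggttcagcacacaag

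S100a11, chr3:93520246-93520495: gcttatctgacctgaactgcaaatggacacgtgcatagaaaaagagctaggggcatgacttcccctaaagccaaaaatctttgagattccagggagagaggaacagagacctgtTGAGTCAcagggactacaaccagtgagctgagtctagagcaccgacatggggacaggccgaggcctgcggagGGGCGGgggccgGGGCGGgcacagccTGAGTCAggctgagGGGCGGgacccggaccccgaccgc

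The S100a4 window held a TATAAA from base 31 to base 26 before the start and 2 matches to CACCC. The S100a11 window held no TATAAA, 3 matches to GGGCGG and 2 to TGANTCA. The S100a6 window held none of the 4 motifs. Of 32817 RefSeq windows of the same length, 12.4% held TATAAA, 52.0% CACCC, 32.7% GGGCGG and 6.75% TGANTCA, so each of these matches is a description of the letters and not a site in use.

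Thymocyte barcodes were those with at least 200 genes, at most 15% mitochondrial UMIs and at most 1 UMI of the B cell genes Cd79a, Cd79b and Ms4a1, which left 5274 to 18515 barcodes per library with 37820685 to 338698944 UMIs. Between 89.9% and 99.8% of them carried at least 3 UMIs of Cd3d, Cd3e and Cd3g. Lat was at 357 to 648 CPM in the WT libraries and at 4.83 and 0.899 in the Lat-/- DN3 γδ- and DN3 γδint libraries. The median depth was 15392 to 18506 UMIs per barcode in the DN3b and DN4 γδ- libraries and in DN3b γδ+ cells, and 5738 to 7275 in the other libraries. The summed level of 10 myeloid genes was 2.42 to 48.2 CPM and that of 5 erythroid genes 0.167 to 170. Barcodes rich in cell cycle transcripts made up 96.6% to 97.4% of DN3b γδ-, DN4 γδ- and DN3b γδ+ barcodes, 10.0% of DN3a, 31.1% of DN4 γδ+, 12.4% of Lat-/- DN3 γδ- and 48.8% of Lat-/- DN3 γδint barcodes. Any 2 libraries shared 7 to 68 barcode sequences.

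S100a4, the myosin-binding member, was at 0.0558 CPM in DN3a cells, 0.115 in DN3b γδ- cells, 3.07 in DN4 γδ- cells, 4.40 in DN3b γδ+ cells and 209 (206 to 213) in DN4 γδ+ cells. In Lat-/- DN3 γδ- cells it was at 0.477 and in Lat-/- DN3 γδint cells at 0.0264. DN4 γδ+ cells therefore stood alone, and the DN3a and Lat-/- DN3 γδint values rest on 3 UMIs and 1 UMI. All 24 UMIs of Lat-/- DN3 γδ- cells came from 1 barcode. Among spiked B cells S100a4 was at 31.2 (18.8 to 48.7) in the DN4 γδ+ library, where 19 UMIs were counted, while the B cells of the other 6 libraries held 2 UMIs between them, or 0.584 CPM. The B cells of the DN4 γδ+ library thus carried more S100a4 than those elsewhere, at a level below that of the thymocytes beside them.

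S100a6, the CACYBP-binding member, showed the same order. Its level was 0.744 CPM in DN3a cells, 0.856 in DN3b γδ- cells, 4.65 in DN4 γδ- cells, 5.58 in DN3b γδ+ cells, 133 (130 to 135) in DN4 γδ+ cells, 1.27 in Lat-/- DN3 γδ- cells and 0.397 in Lat-/- DN3 γδint cells. Of the 64 UMIs in Lat-/- DN3 γδ- cells, 30 were in 1 barcode. B cells expressed S100a6 in all 7 libraries, at 17.4 to 75.7 in 6 of them and at 213 in the DN3a library, where 80 of 104 UMIs belonged to 1 barcode and the level without it was 50.6. A single barcode also held 23 of 30 UMIs in the B cells of the DN4 γδ- library, which were at 16.2 without it. In 6 of the 7 libraries the thymocytes were below the B cells, and in DN4 γδ+ they were above them.

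S100a10, the annexin A2 partner, was at 121 CPM in DN3a cells, 75.8 in DN3b γδ- cells, 81.3 in DN4 γδ- cells, 198 in DN3b γδ+ cells and 882 (875 to 889) in DN4 γδ+ cells. The Lat-/- libraries were at 130 in DN3 γδ- and 49.9 in DN3 γδint cells. Both γδ+ libraries were thus above the 5 others. S100a10 in B cells was at 314 to 503 in 6 libraries and at 158 in the Lat-/- DN3 γδint library, so the level in the Lat-/- DN3 γδint library was the lowest in both cell types.

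S100a11, an annexin-binding member, had a different order. It was at 224 CPM in DN3a cells, 38.8 in DN3b γδ- cells, 28.0 in DN4 γδ- cells, 66.6 in DN3b γδ+ cells, 279 (275 to 283) in DN4 γδ+ cells, 260 in Lat-/- DN3 γδ- cells and 52.4 in Lat-/- DN3 γδint cells. DN3a, DN4 γδ+ and Lat-/- DN3 γδ- cells formed the high group, and these were also the 3 libraries with the lowest shares of cycling barcodes. In B cells S100a11 was at 349 in the DN3a library, 187 to 245 in the other 5 libraries outside Lat-/- DN3 γδint, and 71.6 there. Beside their B cells the order of the top libraries turned in the point values. The levels were 279 against 245 in the DN4 γδ+ library and 260 against 197 in the Lat-/- DN3 γδ- library. These B cell levels had overlapping intervals, 207 to 287 and 166 to 233, so this turn is not settled by the counts. Among barcodes rich in cell cycle transcripts the order turned as well (195 and 212).

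S100a13, the FGF1-release member, varied least among the WT libraries. It was at 71.5 CPM in DN3a cells, 40.0 in DN3b γδ- cells, 55.3 in DN4 γδ- cells, 53.4 in DN3b γδ+ cells and 158 (155 to 161) in DN4 γδ+ cells. The intervals of DN4 γδ- and DN3b γδ+ cells, 54.3 to 56.2 and 52.3 to 54.4, overlapped. In Lat-/- DN3 γδ- cells it was at 75.8 and in Lat-/- DN3 γδint cells at 16.9, beside 72.8 and 10.8 in the B cells of the same libraries.

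**Figure D1:**
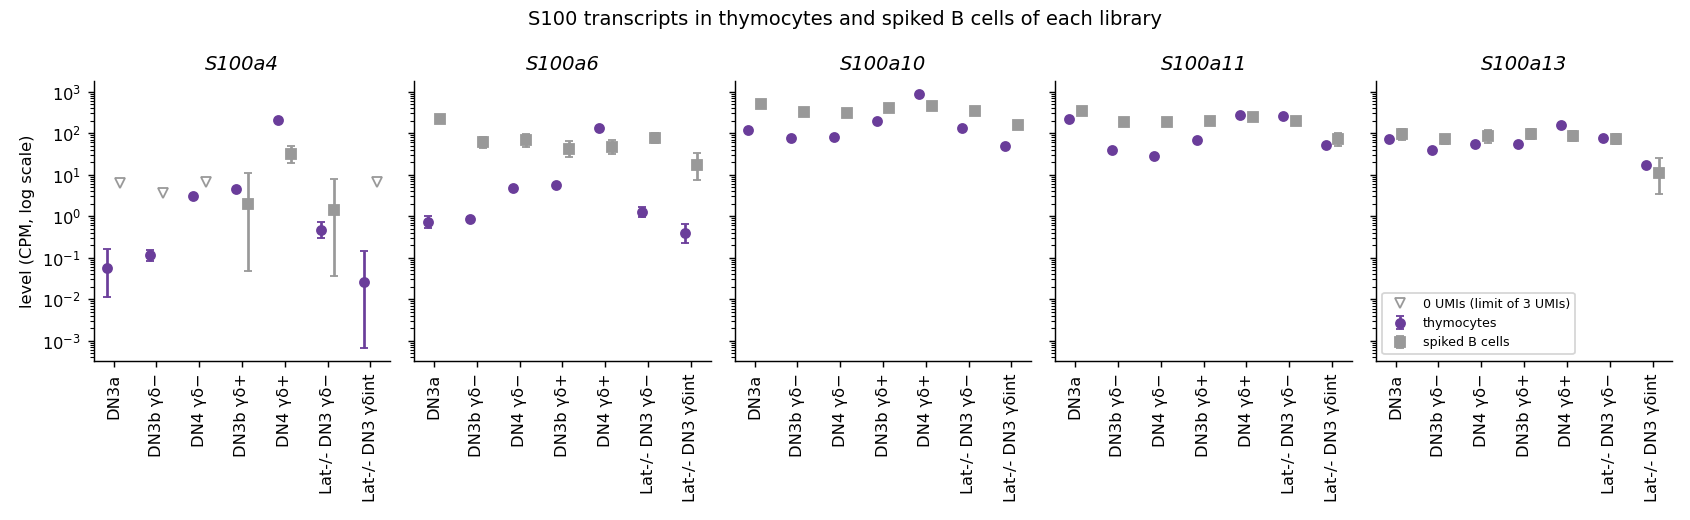
Level of each S100 gene in CPM (log scale) in the thymocytes (circles) and the spiked B cells (squares) of each library, with 95% counting intervals and open triangles at the level of 3 UMIs where B cells held none. Among the thymocytes those of the DN4 γδ+ library are highest for every gene, from 133 for S100a6 to 882 for S100a10, and S100a4 in the B cells of that library stands at 31.2.

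The share of barcodes with at least 1 UMI was compared after every barcode was thinned to 4000 UMIs, which left out 343 to 1769 shallower thymocyte barcodes per library. S100a4 was detected in 31.8% of DN4 γδ+ barcodes, 1.59% of DN3b γδ+, 0.550% of DN4 γδ- and 0.0453% of DN3b γδ- barcodes. It was detected in 0 of 6462 DN3a barcodes, which allows a share of up to 0.0464%, and in 0 barcodes of either Lat-/- library, which allows up to 0.0490% in DN3 γδ- and 0.0661% in DN3 γδint. These limits hold for barcodes with a UMI at 4000 UMIs and by 3 counts of the total, since without thinning 2 DN3a barcodes and 1 in each Lat-/- library carried S100a4. Without thinning the DN4 γδ+ share was 37.3% and the others were 0.0155% to 4.21%. Spiked B cells, which held 0 or 1 UMI of S100a4 in each of the other 6 libraries, served as the background, with 5 of 59 detected (8.47%, exact interval 2.81% to 18.7%) in the DN4 γδ+ library and 1 of 52 (1.92%, 0.0487% to 10.3%) in the DN3b γδ+ library. The thymocyte share was thus above that of the B cells in the DN4 γδ+ library. In the DN3b γδ+ library 1 B cell barcode with S100a4 is too few to place the thymocyte share above or below. At 2000 UMIs per barcode the shares there were 0.972% of thymocyte barcodes and 1 of 125 B cell barcodes (0.8%). The median depth of B cell barcodes before thinning was 2448 to 3711 UMIs.

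S100a6 was detected at 4000 UMIs per barcode in 26.3% of DN4 γδ+ barcodes and in 0.132% to 2.14% of barcodes in the other libraries. These 6 lower shares were below those of the B cells in the same libraries, which were 7.41% to 16.7%. S100a10 was the most widely detected member in WT DN3b and DN4 cells, in 92.5% of DN4 γδ+ barcodes, 51.2% of DN3b γδ+ barcodes and 18.2% to 40.8% of the barcodes of the other libraries. S100a11 was detected in 57.0% of DN3a, 15.4% of DN3b γδ-, 11.4% of DN4 γδ-, 24.2% of DN3b γδ+, 63.1% of DN4 γδ+, 62.7% of Lat-/- DN3 γδ- and 20.3% of Lat-/- DN3 γδint barcodes. The shares of DN4 γδ+ and Lat-/- DN3 γδ- barcodes with S100a11 had overlapping intervals. S100a13 was detected in 48.0% of DN4 γδ+ barcodes and in 7.03% to 26.4% elsewhere. At least 3 of the 5 genes were detected in 52.2% of DN4 γδ+ barcodes, against 0.331% to 7.54% in the other 6 libraries. In spiked B cells this share was 32.2% of 59 barcodes in the DN4 γδ+ library and 3.70% to 26.5% in the others. It was not compared with what the shares of the single genes would give by themselves.

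**Figure D2:**
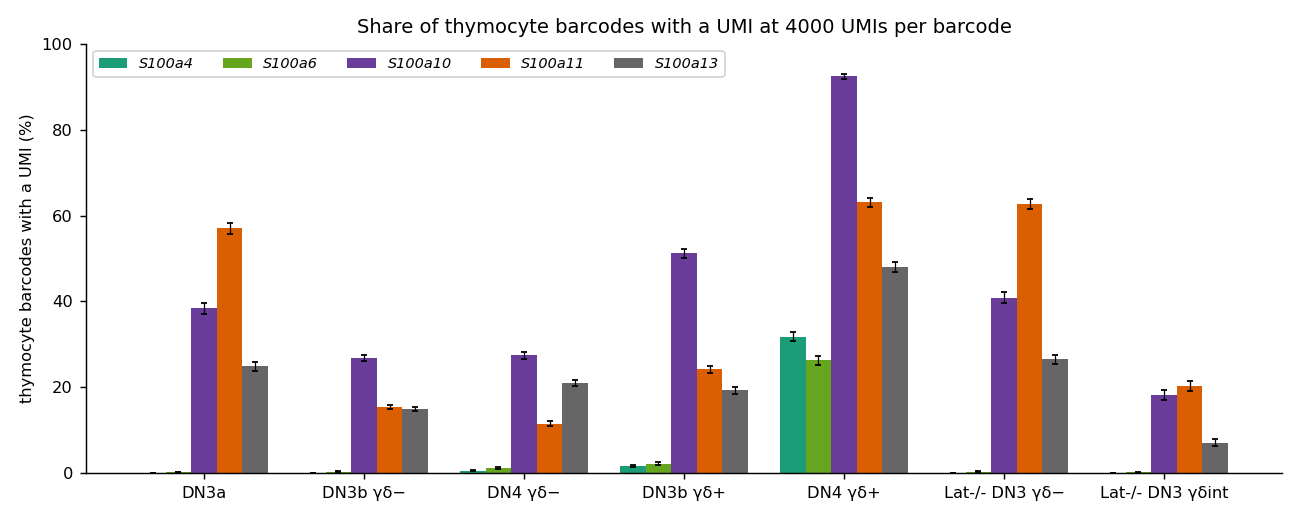
Share of thymocyte barcodes (%) with at least 1 UMI of each S100 gene after thinning to 4000 UMIs, by library, with exact 95% binomial intervals. S100a4 and S100a6 are visible mainly in DN4 γδ+ cells, at 31.8% and 26.3%, while S100a10 reaches 92.5% there.

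All 5 genes were higher by at least 2-fold in DN4 γδ+ than in DN3b γδ+ cells. A feature was counted as changed where it differed by at least 2-fold and reached 20 CPM in 1 of the 2 libraries, and 10.5% of all 5827 features at that level were higher by this rule and 7.33% lower. S100a4 was 47.6-fold higher (log2 5.57, 5.47 to 5.67), S100a6 23.8-fold, S100a10 4.45-fold, S100a11 4.18-fold and S100a13 2.97-fold. S100a4 and S100a6 reached 20 CPM in the DN4 γδ+ library alone, so by this rule they could only be counted as higher. S100a10, S100a11 and S100a13 reached it in both libraries. In the spiked B cells the same ratio was 0.16 for S100a6, 0.18 for S100a10, 0.31 for S100a11 and -0.16 for S100a13, each with an interval that included 0, and S100a4 stood at 19 UMIs against 1. Scaling by TMM, which assumes that most features do not change, lowered all log2 ratios of this comparison by 0.30 and left each gene above 2-fold. Among barcodes poor in cell cycle transcripts S100a4 was 6.99-fold higher and S100a6 and S100a10 passed 2-fold, while S100a11 (log2 0.71) and S100a13 (0.67) did not. The shares of all features given here and below are over all barcodes, and none is given for barcodes poor in cell cycle transcripts.

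Against DN4 γδ- cells the 5 genes were likewise all higher in DN4 γδ+ cells, where 18.4% of features were higher and 8.96% lower. This comparison shares the DN4 γδ+ library with the one before, and S100a4 and S100a6 again reached 20 CPM in that library alone. S100a10 was 10.8-fold higher and S100a11 9.94-fold higher, with log2 ratios of 0.56 and 0.39 in B cells. S100a4 was 68.2-fold higher, S100a6 28.5-fold and S100a13 2.87-fold. TMM scaling lowered these log2 ratios by 0.34. Among barcodes poor in cell cycle transcripts S100a4 was 3.08-fold higher, S100a6 1.21-fold, S100a10 4.05-fold, S100a11 1.90-fold and S100a13 1.77-fold, so that 2 of the 5 passed 2-fold. With the barcodes rich in MHC class II transcripts also left out S100a4 was 18.8-fold higher, S100a6 2.20-fold and S100a11 2.86-fold, and 4 of the 5 passed.

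Among the members that reached 20 CPM in DN3a or DN3b cells, S100a11 had the largest difference between these stages over all barcodes. In DN3b γδ- cells S100a11 was 5.78-fold below DN3a (log2 -2.53), while it was 0.88 lower on the log2 scale in B cells, and the difference between these ratios was -1.65 (-1.97 to -1.34). Among barcodes poor in cell cycle transcripts it was 2.20-fold below DN3a (log2 -1.14). In DN3b γδ+ cells it was 3.37-fold below DN3a (log2 -1.75), with -0.82 in B cells and a difference of -0.93 (-1.29 to -0.58). Both comparisons share the DN3a library. Of the 3 members that reached 20 CPM, only S100a11 was lower by 2-fold in either comparison and none was higher, where 14.6% of features were lower and 11.4% higher in DN3b γδ- cells and 13.4% lower and 11.5% higher in DN3b γδ+ cells. The lower S100a11 of DN3b γδ+ cells did not pass 2-fold after the B cell ratio was subtracted, nor among barcodes poor in cell cycle transcripts, where it was at -0.21. In those barcodes 3 other members were higher in DN3b γδ+ than in DN3a cells by 2-fold, S100a4 at 38.8 against 0.0220 CPM, S100a6 41.3-fold and S100a10 3.24-fold. The 0.0220 CPM rests on 1 UMI and the DN3b γδ+ levels on 417 barcodes. The shares of features above do not apply to this count.

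Over all barcodes S100a10 and S100a13 differed less between DN3a and DN3b. The log2 ratio of S100a10 was -0.67 in DN3b γδ- cells, with -0.65 in B cells, and the difference of -0.02 had an interval that included 0 (-0.27 to 0.23). In DN3b γδ+ cells it was 0.72 in thymocytes and -0.30 in B cells, a difference of 1.01 (0.75 to 1.28) that passed 2-fold, and among barcodes poor in cell cycle transcripts it was 1.70. TMM scaling added 0.32 to the log2 ratios of the γδ+ comparison and 0.36 to those of the γδ- comparison, and S100a10 then passed 2-fold in DN3b γδ+ cells at 1.04. S100a13 was at -0.84 in DN3b γδ- cells and at -0.42 in DN3b γδ+ cells, with -0.42 and 0.04 in B cells. S100a4 was counted 39 times in DN3b γδ- cells and 3 times in DN3a cells, a log2 ratio of 1.04 whose interval reached from -0.61 to 3.38.

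Between the branches at the DN3b stage S100a10 was 2.62-fold higher in DN3b γδ+ than in DN3b γδ- cells, with a log2 ratio of 1.39 in thymocytes and 0.35 in B cells. It was the only 1 of 3 members at 20 CPM to pass 2-fold, and 5.13% of features were higher and 1.79% lower. S100a11 was 1.72-fold higher and S100a13 1.33-fold higher. S100a4 and S100a6, both under 20 CPM in these libraries, were 38.2-fold and 6.52-fold higher.

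Between DN3b γδ- and DN4 γδ- cells few transcripts differed, with 0.524% of features higher and 0.660% lower, and 0 of 3 members at 20 CPM passed 2-fold. Among barcodes poor in cell cycle transcripts S100a4, S100a6 and S100a10 passed it, S100a10 at a log2 ratio of 1.17. Without the barcodes rich in MHC class II transcripts S100a6 and S100a10 did, S100a10 at 1.14. S100a4 was then at 14.4 against 0.315 CPM, the latter from 1 UMI, with a log2 ratio of 5.52 (2.95 to 10.9). It was not counted because it did not reach 20 CPM. Over all barcodes the log2 ratios were 0.10 for S100a10, -0.47 for S100a11 and 0.47 for S100a13. S100a11 was thus lower at DN4 on the γδ- branch and higher at DN4 on the γδ+ branch over all barcodes, but among barcodes poor in cell cycle transcripts its log2 ratio was 0.71 on both branches, and 0.12 on the γδ- branch without the barcodes rich in MHC class II transcripts.

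**Figure D3:**
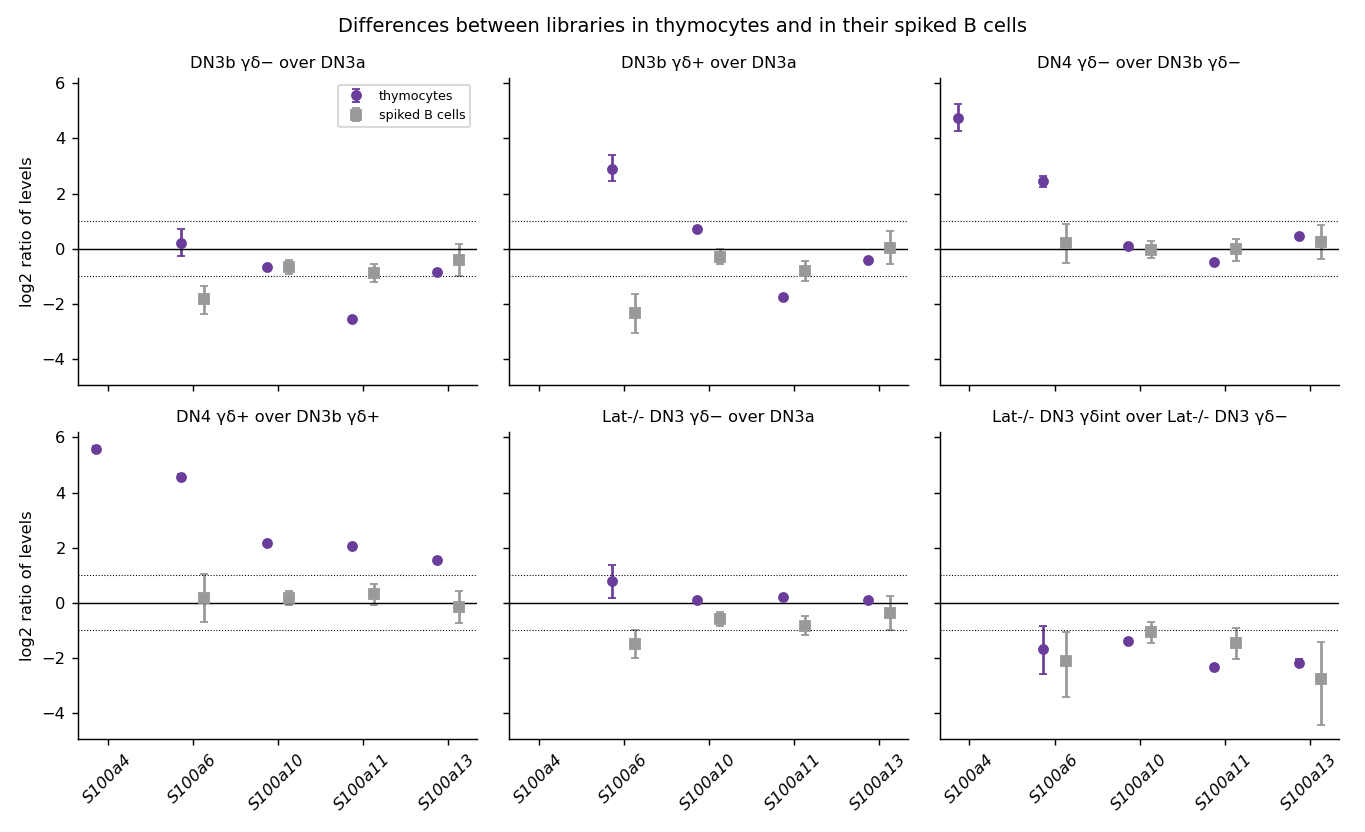
Log2 ratio of levels between pairs of libraries in thymocytes (circles) and in the spiked B cells of the same libraries (squares), with 95% counting intervals and dotted lines at 2-fold; S100a4 is drawn only where both libraries held more than 3 UMIs. In DN4 γδ+ over DN3b γδ+ cells the thymocyte values run from 1.57 to 5.57 while the B cell values drawn, those of the 4 members other than S100a4, lie near 0, and in Lat-/- DN3 γδint over Lat-/- DN3 γδ- cells thymocytes and B cells are low together.

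The S100a4 and S100a6 of DN4 γδ- cells came from few barcodes. Of 747 S100a4 UMIs, 661 (88.5%) lay in 33 of 12942 barcodes with at least 3 UMIs each, up to 48 in 1 barcode. In these 33 barcodes the MHC class II genes, which antigen-presenting cells express, were abundant, with Cd74 at 3741 CPM and H2-Aa at 1229, against 10.1 and 3.26 in the 12833 barcodes without S100a4. MHC class II transcripts came from part of them, with Cd74 in 17 of the 33. The filter on thymocytes allowed at most 1 UMI of Cd79a, Cd79b and Ms4a1, and Cd79b was found in 8 of the 33, while the B cell transcription factor gene Ebf1 was at 35.5 CPM against 0.637. At least 3 Cd3 UMIs were carried by 21 of the 33. The summed level of the IFN-γ marker list described below was 410 CPM against 8.75 in the barcodes without S100a4, and that of the IL-17 list 203 against 25.7. The egress and PLZF lists, also described below, were at 613 against 83.1 and at 96.8 against 41.0. Their median depth was 7524 UMIs, against 18529 in the barcodes without S100a4. S100a6 was at 1293, S100a10 at 439 and S100a11 at 422 in these 33 barcodes.

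Barcodes with at least 10 UMIs of Cd74, H2-Aa, H2-Ab1 and H2-Eb1 numbered 97 in DN4 γδ- cells and 2 to 25 in the other libraries. They held 70.7% of the S100a4 UMIs and 43.6% of the S100a6 UMIs of DN4 γδ- cells. Without them S100a4 was at 0.903 CPM in place of 3.07, and S100a6 at 2.64 in place of 4.65. The log2 ratio of DN4 γδ- over DN3b γδ- cells went from 4.74 to 3.09 for S100a4 and from 2.44 to 1.63 for S100a6, and that of DN4 γδ+ over DN4 γδ- cells from 6.09 to 7.85 and from 4.83 to 5.65. In DN4 γδ+ cells 12 such barcodes held 0.239% of the S100a4 UMIs, and the level of S100a4 without them was 209. What these barcodes hold beyond these transcripts was not tested.

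In DN3b γδ+ cells 353 of 862 S100a4 UMIs (41.0%) lay in 73 barcodes with at least 3 UMIs. The summed level of 5 genes tied to leaving the thymus or to homing, among them S1pr1, Klf2, Ccr9 and Ccr7, was 1135 CPM in these 73 barcodes and 403 in the 11840 without S100a4. Of the marker lists whose genes are named with the DN4 γδ+ programs, the sum of the IL-17 list was 394 against 138 CPM, that of the IFN-γ list 379 against 342 and that of the PLZF list 52.8 against 38.3, so the egress list was not alone in being higher. S100a6 was at 136 against 3.95 in the same barcodes, S100a10 at 559 against 191, S100a11 at 192 against 65.0 and S100a13 at 142 against 51.4. All 4 other members were thus higher where S100a4 was found, and the myeloid sum was 4.98 against 2.37.

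LAT-deficient DN3 γδ- cells resembled WT DN3a cells in the 3 abundant members. The log2 ratios were 0.11 for S100a10, 0.21 for S100a11 and 0.08 for S100a13, and 0 of 3 members passed 2-fold, where 2.28% of features were higher and 0.557% lower. TMM scaling lowered these ratios by 0.17 and turned the sign of S100a10 (-0.05) and S100a13 (-0.09). The B cells of the Lat-/- library were lower in S100a10 (-0.59) and S100a11 (-0.82) than those of the DN3a library, and relative to B cells the thymocytes were 0.70 (0.44 to 0.97) higher in S100a10 and 1.04 (0.71 to 1.36) higher in S100a11. Genotype and library cannot be told apart with 1 library of each.

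LAT-deficient DN3 γδint cells were lower than LAT-deficient DN3 γδ- cells in all 3 abundant members, by 2.61-fold for S100a10, 4.97-fold for S100a11 and 4.49-fold for S100a13. Over all features 3.95% were lower by 2-fold and 4.64% higher. The B cells of the γδint library were lower as well, with log2 ratios of -1.08 for S100a10, -1.46 for S100a11 and -2.75 for S100a13, beside -1.39, -2.31 and -2.17 in thymocytes. The difference between thymocytes and B cells was -0.31 (-0.70 to 0.08) for S100a10, -0.85 (-1.40 to -0.30) for S100a11 and 0.58 (-0.75 to 1.91) for S100a13. The interval of the difference thus excluded 0 for S100a11 and included it for S100a10 and S100a13. The share of UMIs from ribosomal-protein genes was also low in this library, 18.2% in thymocytes and 19.6% in B cells against 27.7% to 33.7% and 29.8% to 36.2% in the others, and its part in these ratios was not tested.

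Between LAT-deficient DN3 γδint and WT DN3b γδ+ cells, the groups that carry a γδ receptor without and with LAT, S100a10 and S100a13 were lower in the LAT-deficient cells, with log2 ratios of -1.99 and -1.66. Of 3 members, 2 were lower by 2-fold and 0 higher, where 7.41% of features were lower and 24.8% higher. Among barcodes poor in cell cycle transcripts all 5 were lower by 2-fold, S100a4 with 0 UMIs in the LAT-deficient cells and taken at a limit of 3, with log2 ratios of -2.96 for S100a10, -1.65 for S100a11 and -2.44 for S100a13. No share of all features is given for these barcodes, so this count has no background beside it. B cells differed by -1.37 in S100a10, -1.47 in S100a11 and -3.16 in S100a13. Relative to B cells S100a10 was thus 0.62 lower (interval of the difference -1.01 to -0.23) and S100a11 1.12 higher (0.55 to 1.69). S100a13, lower in thymocytes and in B cells, was 1.5 higher relative to B cells (0.17 to 2.83). That value rests on 5 UMIs in the B cells of the γδint library. S100a11 itself was at -0.35 in thymocytes and at -1.09 with TMM scaling, which lowered all log2 ratios of this comparison by 0.74. S100a4 was counted once in 5274 LAT-deficient DN3 γδint barcodes and 862 times in 12361 WT DN3b γδ+ barcodes, and S100a6 had a log2 ratio of -3.81 in thymocytes and -1.30 in B cells.

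Within DN4 γδ+ cells the counts of S100a4 and S100a6 were more correlated than those of the other pairs. Of 14617 S100a4 UMIs, 83.9% were in 1390 barcodes with at least 3 UMIs, up to 63 in 1 barcode. At 4000 UMIs per barcode S100a6 was detected in 42.9% of 2203 barcodes with S100a4 and in 18.5% of 4731 barcodes without it, and its level was 315 against 78.7 CPM. S100a10 was detected in 95.5% against 91.0% of the same barcodes, S100a11 in 68.3% against 60.6% and S100a13 in 53.9% against 45.3%. Sorted by S100a10 in place of S100a4, S100a6 was at 163 CPM in 6411 barcodes with it and at 42.1 in 523 without. S100a4 was at 247 and 88.0 in these. Across the 6934 barcodes, all from 1 library, Pearson's r was 0.37 for S100a4 with S100a6, 0.28 for S100a10 with S100a11 and 0.06 to 0.19 for the other pairs, as a description of sparse counts.

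DN4 γδ+ cells include cells on the way to IL-17 and to IFN-γ production, and barcodes were sorted by marker lists of these programs. A barcode was taken as bearing a list with at least 2 UMIs of its genes at 4000 UMIs and was set against barcodes with 0. The lists overlap, since 5322 of 6934 barcodes bore more than 1 of the 4 lists, so they mark gene programs and not separate cell types. With the IFN-γ list (Il2rb, Eomes, Tbx21, Klrd1, Nkg7, Xcl1 and Klrk1), S100a6 was 2.27-fold higher and S100a4 1.87-fold higher in the 3058 bearing barcodes than in 2216 without. With the IL-17 list of 8 genes (among them Sox13, Maf, Blk, Il23r, Il1r1, Ccr6 and Il17re), S100a6 was 1.74-fold lower in 3496 barcodes than in 2492, and S100a4 was almost equal at 227 and 240 CPM. S100a4 was detected in 34.4% of the bearing barcodes and in 28.3% of those without.

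With the same egress list of 5 genes S100a4 was 2.52-fold higher in 6242 bearing barcodes than in the 313 without, while S100a11 was 1.28-fold lower. At 2000 UMIs per barcode the S100a4 ratio was 1.59-fold, below 2-fold. With the PLZF list (Zbtb16, Icos, Il4 and Slamf6) S100a11 was 1.53-fold higher in 550 bearing barcodes, S100a6 was 1.33-fold higher and S100a4 had a log2 ratio of -0.02 (-0.15 to 0.11). With at least 3 UMIs of the PLZF list S100a6 was 2.08-fold higher and S100a11 1.92-fold, and at 2000 UMIs per barcode they were 2.07-fold and 1.49-fold higher. S100a10 was 1.31-fold higher with the PLZF list, 1.48-fold with at least 3 of its UMIs, and differed by less than 1.4-fold with the other 3 lists at either minimum. With the IFN-γ list S100a11 was 1.42-fold higher.

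**Figure D4:**
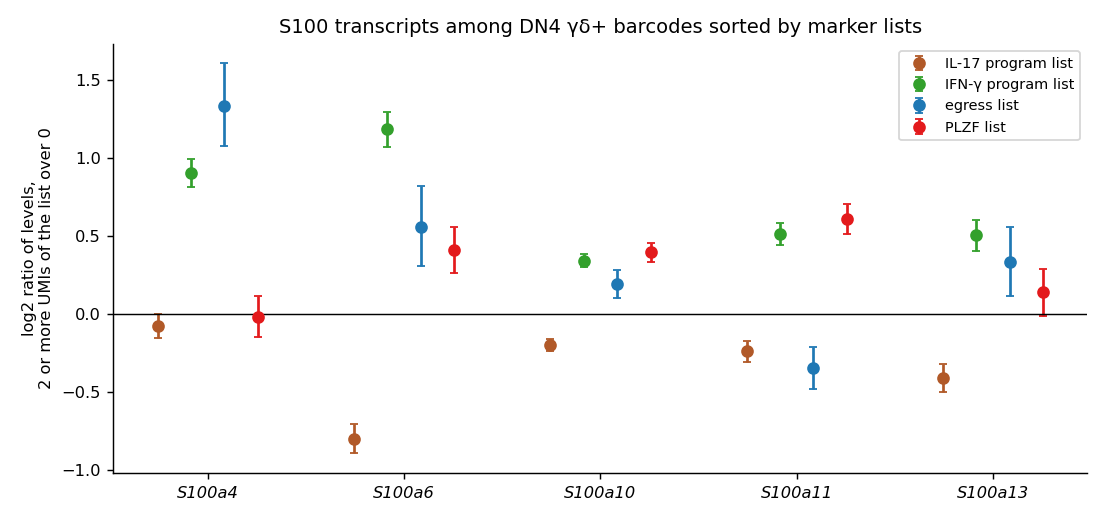
Log2 ratio of the level of each S100 gene among DN4 γδ+ barcodes, those with at least 2 UMIs of a marker list over those with 0, at 4000 UMIs per barcode and with 95% counting intervals. S100a6 is highest with the IFN-γ list (1.18) and lowest with the IL-17 list (-0.80), and S100a4 is at 1.33 with the egress list, a value that is 0.67 at 2000 UMIs per barcode.

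Single markers of these lists differed among themselves. Barcodes with a UMI of Klrd1, an NK receptor chain, were 1.93 higher in S100a6 and 1.23 higher in S100a4 on the log2 scale than barcodes without. Barcodes with a UMI of Eomes, a transcription factor of the same list, were 2.02 lower in S100a4 (59.2 against 240 CPM) and 0.88 higher in S100a11. Barcodes with Zbtb16, which encodes PLZF, were 1.33 higher in S100a6 and 1.15 higher in S100a11. Those with the egress receptor S1pr1 were 1.13 higher in S100a6, and those with the gut-homing receptor Ccr9 had a log2 ratio of -0.81 for S100a6 and -0.01 for S100a4. Genes of the IL-17 list differed as well, with S100a4 at -0.94 for Il17re, -0.17 for Maf, 0.03 for Sox13, 0.09 for Blk and 0.43 for Il1r1.

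The libraries differed in cycling, so each was split into barcodes with under 0.1% of UMIs from 20 cell cycle genes and those with more. Low-cycle barcodes were shallower, with a mean of 5157 to 7403 UMIs against 9287 to 19201. They numbered 416 to 482 in DN3b γδ-, DN4 γδ- and DN3b γδ+ cells and 2702 to 6136 in the other libraries. The cut also placed 47.3% to 72.0% of the spiked B cells of the first 3 libraries among the high-cycle barcodes. It therefore does not mark cycling cells alone, and a low-cycle ratio is not free of cycling. S100a11 was higher in the low-cycle barcodes of all 7 libraries, at 240 against 137 CPM in DN3a, 109 against 38.1 in DN3b γδ-, 178 against 26.2 in DN4 γδ-, 207 against 64.4 in DN3b γδ+ and 340 against 195 in DN4 γδ+ cells. In Lat-/- DN3 γδ- cells it was 272 against 212 and in Lat-/- DN3 γδint cells 66.2 against 44.3. S100a13 was likewise higher in the low-cycle barcodes of all 7 libraries, with log2 ratios of high-cycle over low-cycle barcodes from -1.08 in DN3b γδ+ to -0.17 in Lat-/- DN3 γδ- cells and each interval below 0. S100a10 had ratios of -1.67 to -0.33 in the 5 WT libraries, and of -0.07 and -0.09 with intervals that included 0 in the Lat-/- libraries. S100a4 in DN3b γδ+ cells was at 38.8 in 417 low-cycle barcodes and at 3.87 in 11944 others, and in DN4 γδ+ cells at 271 and 125. S100a6 followed it with 32.8 and 5.16 in DN3b γδ+ cells and 169 and 83.0 in DN4 γδ+ cells.

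In DN4 γδ- cells 416 low-cycle barcodes had S100a4 at 87.9 CPM and S100a6 at 139, and without the barcodes rich in MHC class II transcripts these were 14.4 and 76.9. The step from DN3b γδ+ to DN4 γδ+ was smaller among low-cycle barcodes, where the log2 ratio was 2.81 for S100a4, 2.36 for S100a6, 1.34 for S100a10, 0.71 for S100a11 and 0.67 for S100a13, so that 3 of 5 members passed 2-fold. Among high-cycle barcodes it was 5.01, 4.01, 1.83, 1.60 and 1.36, and all 5 passed. The shares of all features past 2-fold among low-cycle and among high-cycle barcodes are not given, so both counts lack a background. S100a11 in DN3b γδ+ over DN3a cells was at -0.21 among low-cycle and -1.09 among high-cycle barcodes, and in DN3b γδ- over DN3a cells at -1.14 and -1.85. S100a10 in DN3b γδ+ over DN3a cells was higher by 1.70 among low-cycle and by 0.98 among high-cycle barcodes. In DN4 γδ+ over DN4 γδ- cells the low-cycle log2 ratio was 1.63 for S100a4, 0.28 for S100a6, 2.02 for S100a10, 0.93 for S100a11 and 0.82 for S100a13. Without the barcodes rich in MHC class II transcripts the first 2 were 4.23 and 1.13.

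**Figure D5:**
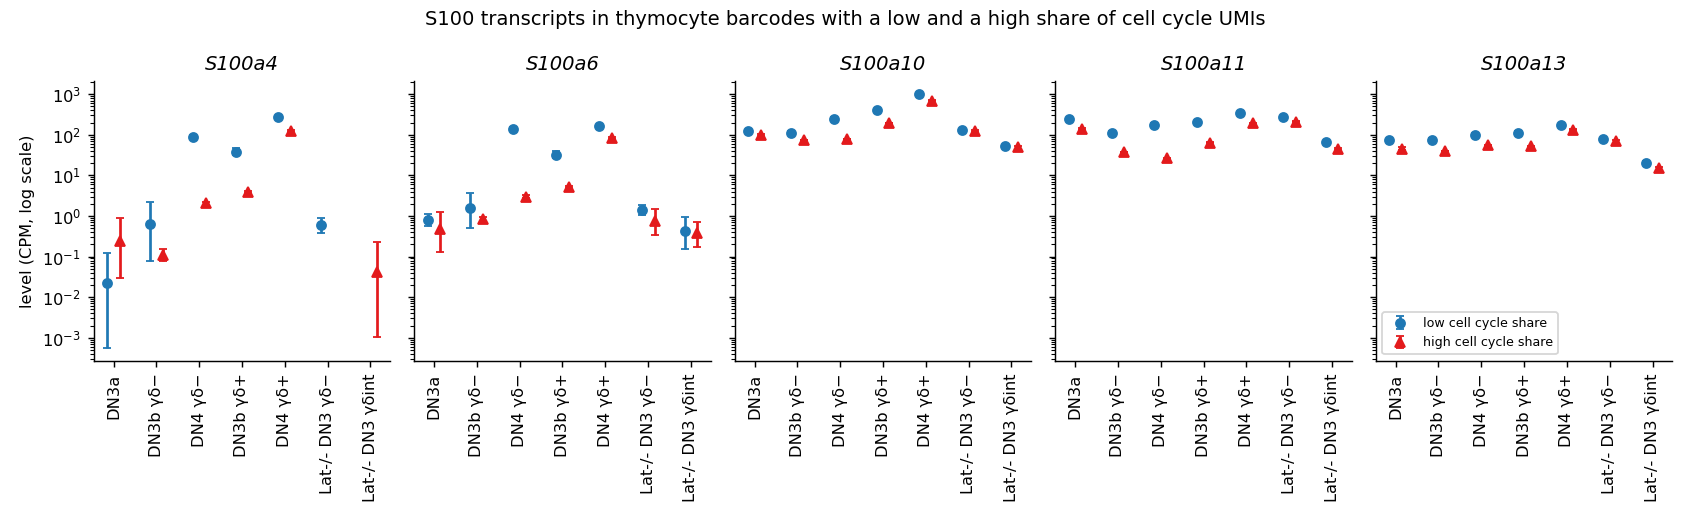
Level of each S100 gene in CPM (log scale) in thymocyte barcodes with a low (circles) and a high (triangles) share of cell cycle UMIs in each library, with 95% counting intervals; a group at 0 is not drawn. The low-cycle barcodes are higher for S100a11 in all 7 libraries, and S100a4 in DN3b γδ+ cells is at 38.8 against 3.87.

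Of the 12 other S100 features only S100a1 passed 1 CPM in a thymocyte library, at 2.17 in Lat-/- DN3 γδ- cells, 1.17 in DN4 γδ+ cells and 1.16 in Lat-/- DN3 γδint cells. The myeloid genes S100a8 and S100a9 were under it in every library. Of 12 listed partners of S100 proteins, 5 reached 20 CPM, and between DN3b γδ+ and DN4 γδ+ cells 0 were higher by 2-fold and 1 lower, beside 10.5% and 7.33% of all features. The lower one was Cacybp, the S100A6 partner, at 434 in DN3b γδ+ and 178 in DN4 γδ+ cells. Anxa2, which encodes the S100A10 partner, was at 118 and 201, and its highest levels were in Lat-/- DN3 γδ- (327) and Lat-/- DN3 γδint cells (361), where S100a10 was at 130 and 49.9. Ahnak, whose large protein is bound by the S100A10 and annexin A2 complex, was at 17.4 in DN4 γδ+ cells and at most at 1.13 elsewhere.

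Of 12 genes of the cytoskeleton and of effector or homing T cells, 11 reached 20 CPM in DN3b γδ+ or DN4 γδ+ cells, and 5 were higher in DN4 γδ+ cells by 2-fold and 0 lower, beside the same background of 10.5% and 7.33%. They were Itgb7, an integrin chain for homing to the gut (log2 3.54), Klf2, a transcription factor of thymic egress (2.50), Klf6 (1.75), the actin-capping gene Capg (1.53) and Anxa5 (1.23). Itgb7 and Capg reached 20 CPM in the DN4 γδ+ library alone, so by this rule they could only be counted as higher. Vim, which encodes vimentin, was at 268 in DN3b γδ+ and 517 in DN4 γδ+ cells. Capg was at 73.5 in DN3a cells, 6.71 in DN3b γδ- cells, 3.43 in DN4 γδ- cells, 14.5 in DN3b γδ+ cells, 42.0 in DN4 γδ+ cells, 85.3 in Lat-/- DN3 γδ- cells and 25.4 in Lat-/- DN3 γδint cells. Against DN4 γδ- cells 7 of the 11 measured genes of this list were higher in DN4 γδ+ cells and 0 lower, beside 18.4% and 8.96% of all features. Itgb7, Capg, Klf2 and Anxa5 were under 20 CPM in DN4 γδ- cells, at 1.62, 3.43, 13.1 and 19.3, and could only be counted as higher.

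Across the 7 libraries, on the scale of log2(CPM + 1), S100a4 and S100a6 had a Pearson's r of 0.999, and 0.992 over the 6 libraries without DN4 γδ+ cells. That of S100a4 with S100a10 was 0.914 over 7 and 0.533 over 6 libraries, and that of S100a4 with S100a11 was 0.353 and -0.365. The high r of S100a4 with S100a6 thus remained without the highest library, and that with S100a10 rested on it. In the 6 libraries S100a4 was above 1 CPM only in DN4 γδ- (3.07) and DN3b γδ+ cells (4.40), so the 0.992 rests mainly on these points. In DN4 γδ- cells the barcodes rich in MHC class II transcripts held 70.7% of the S100a4 and 43.6% of the S100a6 UMIs. Among 6925 features that reached 20 CPM in 1 library, the closest to S100a4 after S100a6 were Trpm1 (0.993) and Nav2 (0.990), at 23.1 and 23.2 CPM in DN4 γδ+ cells. Closest to S100a10 were Akna (0.994), Samsn1 (0.978) and Cd52 (0.974), closest to S100a11 were AW112010 (0.994), Gpcpd1 (0.976) and Borcs8 (0.973), and closest to S100a13 were Pfdn5 (0.981), Psenen (0.975) and Tsc22d4 (0.975). Apart from Borcs8, highest in DN3a cells, each of these features was highest in DN4 γδ+ cells, where every member peaked. Their r is partly set by that shared peak, and none is given without that library. Trpm1 and Nav2 were also close to the 20 CPM limit there. The points are 7 single libraries that differ in depth, cycling and ribosomal share, and so the values are given without a test.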

How the data were processed

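The authors aligned the reads with Cell Ranger (4.0.0 per the file headers, 5.0.1 per the labels, which also name R 3.6.3 and Seurat 3.1.5) to mm10 with an edited Trdc reporter feature and deposited filtered matrices of UMI counts, 1 library for each of the 7 groups. Barcodes were kept with at least 200 genes and at most 15% mitochondrial UMIs. Thymocytes had at most 1 UMI of Cd79a, Cd79b and Ms4a1, and spiked B cells at least 10 and at least 2 times their Cd3d, Cd3e and Cd3g UMIs. Doublets were removed by scatter gates in the sort and by no caller here. UMIs were summed per library and cell class and scaled to CPM by the total. Intervals are exact Poisson for levels, exact conditional binomial for ratios and Clopper-Pearson for shares, and the interval of a thymocyte minus B cell difference is Wald's. The study's test over cells was not used, since cells are not replicates. A ratio was counted with 20 CPM in 1 of 2 libraries and a 2-fold difference, and 9 comparisons were made. A count of 0 was given the limit of 3 UMIs. TMM factors came from edgeR 4.0.16 in R 4.3.3, and all else was computed with pandas 2.3.3, scipy 1.17.1 and numpy 2.4.6 under Python 3.11.15. The scripts were tested on simulated data. Gene positions are from the GENCODE annotation of GRCm38, and promoters from RefSeq, which matched 4 of the 5 members. The text names the 5 members, S100 features over 1 CPM, a list of partners, a list of cytoskeleton and effector genes and the 3 features most like each member, and the barcodes rich in MHC class II transcripts and the single markers described were chosen after their values were seen. The members and lists were chosen with earlier results of these data known. Some genes of the marker lists are not reported here by name.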

Additional observations from a re-analysis of the deposited data

Results flagged for a closer look

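S100a11 changed in opposite directions between the DN3b and DN4 libraries of the 2 branches. The log2 ratio of DN4 over DN3b was 2.07 in γδ+ cells and -0.47 in γδ- cells, with 0.31 and -0.03 in the spiked B cells of the same libraries. Each ratio compares 1 library with 1 library, and the difference between them was not tested. Among low-cycle barcodes the ratios were 0.71 and 0.71, and without the barcodes rich in MHC class II transcripts 0.72 and 0.12.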

How the results depend on the processing

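No paired analysis was possible because each group has 1 library, and for the same reason no replicate could be left out. Each of the 5 members had its highest level in DN4 γδ+ cells under the 10 alternatives run on levels, while among high-cycle barcodes alone S100a11 was higher in Lat-/- DN3 γδ- cells (212 against 195 CPM). The number of members past 2-fold moved by over 1.5 times in 15 recomputations and stayed within that in 84. Among low-cycle barcodes it went from 1 (S100a11, lower) to 3 (S100a4, S100a6 and S100a10, higher) in DN3b γδ+ over DN3a, from 1 to 3 in DN3b γδ+ over DN3b γδ-, from 0 to 3 in DN4 γδ- over DN3b γδ-, from 5 to 3 in DN4 γδ+ over DN3b γδ+, from 5 to 2 in DN4 γδ+ over DN4 γδ- and from 2 to 5 in Lat-/- DN3 γδint over DN3b γδ+. With barcodes rich in MHC class II transcripts also left out, which was added once the data had been seen, these were 3, 3, 2, 3, 4 and 5. With TMM scaling the count was 2 in DN3b γδ+ over DN3a. With the B cell ratio subtracted, over members with at least 10 B cell UMIs in both libraries, it was 1 in Lat-/- DN3 γδ- over DN3a, 0 in Lat-/- DN3 γδint over Lat-/- DN3 γδ- and 1, S100a11 and now higher, in Lat-/- DN3 γδint over DN3b γδ+. With at least 3 UMIs of a list, 4 member and list pairs of DN4 γδ+ cells passed 2-fold in place of 2, and at 2000 UMIs S100a4 with the egress list did not pass it. No share of all features is given for the marker lists or for the other alternative settings of this paragraph. The counts under them therefore have no background beside them. With the B cell ratio subtracted S100a13 went from -2.17 to 0.58 in Lat-/- DN3 γδint over Lat-/- DN3 γδ- and from -1.66 to 1.5 in Lat-/- DN3 γδint over DN3b γδ+, both left out of these counts for the 5 UMIs in the B cells of the γδint library. S100a4 ratios that involve DN3a or a Lat-/- library rest on 1 to 24 UMIs there and moved by over 1.5 times where 3 Cd3 UMIs were required, and with that rule the log2 ratio of DN4 γδ+ over DN4 γδ- was 7.14 for S100a4 and 5.86 for S100a6. The cause of these moves was not tested.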
